A study of Homo sapiens with 5 samples.

Results

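Lung and foregut lineage factors were described here as a set of 8 genes (NKX2-1, SFTA3, FOXA1, FOXA2, HNF4A, GATA6, CEBPA and SFTPB), chosen by symbol among the 36601 genes of the count table. The data were single-nucleus RNA and ATAC profiles of a pool of 5 human lung adenocarcinoma lines, HCC827, A549, H1975, H2228 and H838. Each line was grown on its own, frozen, and mixed before nuclei were prepared with the 10x Genomics Multiome kit, which reads RNA and open chromatin from the same nucleus. The nuclei were run as an 80% portion of 6557 nuclei and a 20% portion of 1286 nuclei, with 1 RNA and 1 ATAC library each, so no value has a replicate and no difference was tested. Intervals in brackets are 95% intervals for counting error only.

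NKX2-1 is the homeodomain factor that sets and keeps lung and thyroid identity, and pathologists use it as a marker of lung adenocarcinoma. SFTA3 lies beside it and is named for its surfactant-like product, while SFTPB codes for surfactant protein B, a target of NKX2-1 in alveolar type 2 cells. FOXA1 and FOXA2 are forkhead pioneer factors that open chromatin in all foregut derived epithelia. HNF4A is a nuclear receptor of liver, gut and pancreas that is largely silent in normal lung. GATA6 is a zinc finger factor of endoderm and distal lung, and CEBPA is a leucine zipper factor of hepatocytes, myeloid cells and maturing alveolar cells.

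No deposited column gives the line of a nucleus, so the members were described over RNA clusters made without them, their neighbours or the lineage gene lists below. The cell type markers in the next paragraph were not left out of the clustering. The clusters are numbered by size and carry the gene with the largest excess in CPM (UMIs of a gene per 1000000 UMIs of the cluster), and no line was assigned to any. Cluster 0 held 2398 nuclei (MALAT1, 38050 CPM against 34597 in the next, so a weak mark), cluster 1 held 1461 (ALDH1A1, 5351 against 218) and cluster 2 held 1452 (LDHB, 3886 against 1322). Cluster 3 held 462 nuclei (HSP90AA1, 7865 against 4932), cluster 4 held 378 (PVT1, 2646 against 775) and cluster 5 held 326 (EGFR, 7292 against 473). Cluster 6, with 80 nuclei of which 79 were called doublets, was set aside.

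The labelled carcinoma origin was checked on epithelial markers. All 5 of EPCAM, KRT7, KRT8, KRT18 and CDH1 passed the minimum of 200 UMIs. Their summed level was 1571 to 10031 CPM over the 6 clusters, lowest in cluster 2 and highest in cluster 1, and mostly keratin. CDH1 stood at 202 and 196 CPM in clusters 5 and 3, but at 46.0, 17.6, 11.6 and 4.86 in clusters 1, 4, 0 and 2. EPCAM stood at 763 and 693 CPM in clusters 5 and 3, but at 114, 65.5, 41.5 and 23.8 in clusters 0, 4, 1 and 2. The summed level of 4 immune markers was 13.5 to 45.3 CPM, nearly all of it CD68, with CD3E at 4 UMIs and LYZ at 5 in the whole matrix. The 3 endothelial markers summed to 1.69 to 14.4 CPM and the 5 mesenchymal ones to 730 to 4674 CPM, mostly VIM. The mesenchymal sum exceeded the epithelial one in clusters 0 (4041 against 2549), 2 (1871 against 1571) and 4 (4674 against 4284). It was below the epithelial sum in clusters 1, 3 and 5. Median depth was 9151 UMIs per nucleus in cluster 1 and 11938.5 to 17216 in the others compared. Of the barcodes, 159 occurred in both portions, 2.42% of the 80% and 12.4% of the 20% nuclei.

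The 300-base RefSeq promoters (GRCh38.p14) of NKX2-1, FOXA1 and HNF4A are shown first, because the start peaks of these genes are described further on and most of these promoters hold words that were searched in the peaks. The listed promoters of GATA6, CEBPA and SFTPB held none of these exact words, which does not show that the factors have no site there. Capitals mark matches on either strand to short words that the factors are known to bind. NKX2-1 words were CACTTG or the alternative core CTCAAG. For FOXA factors the forkhead word was TGTTTAC, or its common variant TGTTTGC. The HNF4 word was CAAAGTCCA, and for GATA factors the word was AGATAA. The inner NKX2-1 promoter at chr14:36519507-36519806, minus strand, is also listed for SFTA3, and the outer one lies at chr14:36520183-36520482, minus strand. FOXA1 is read at chr14:37595200-37595499, minus strand, and HNF4A at its upstream start, chr20:44355449-44355748, plus strand, and its downstream start, chr20:44400989-44401288, plus strand.
NKX2-1 inner promoter: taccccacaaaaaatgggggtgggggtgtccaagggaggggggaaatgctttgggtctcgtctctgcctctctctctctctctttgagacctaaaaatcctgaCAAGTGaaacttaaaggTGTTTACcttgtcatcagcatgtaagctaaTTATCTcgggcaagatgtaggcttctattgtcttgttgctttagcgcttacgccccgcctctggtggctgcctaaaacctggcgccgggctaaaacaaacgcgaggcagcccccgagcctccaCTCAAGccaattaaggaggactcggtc
NKX2-1 outer promoter: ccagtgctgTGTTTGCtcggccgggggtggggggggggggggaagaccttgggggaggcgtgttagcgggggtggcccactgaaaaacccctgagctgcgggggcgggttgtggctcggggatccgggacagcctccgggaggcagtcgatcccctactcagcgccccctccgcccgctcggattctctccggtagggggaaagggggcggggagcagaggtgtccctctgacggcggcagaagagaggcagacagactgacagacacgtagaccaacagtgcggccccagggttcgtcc
FOXA1 promoter: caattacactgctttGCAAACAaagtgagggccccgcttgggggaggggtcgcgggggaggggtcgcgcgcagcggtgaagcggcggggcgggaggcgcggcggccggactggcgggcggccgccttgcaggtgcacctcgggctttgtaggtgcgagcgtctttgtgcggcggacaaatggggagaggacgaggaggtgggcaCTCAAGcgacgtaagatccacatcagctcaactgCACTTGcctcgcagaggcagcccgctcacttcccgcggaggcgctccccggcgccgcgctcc
HNF4A upstream promoter: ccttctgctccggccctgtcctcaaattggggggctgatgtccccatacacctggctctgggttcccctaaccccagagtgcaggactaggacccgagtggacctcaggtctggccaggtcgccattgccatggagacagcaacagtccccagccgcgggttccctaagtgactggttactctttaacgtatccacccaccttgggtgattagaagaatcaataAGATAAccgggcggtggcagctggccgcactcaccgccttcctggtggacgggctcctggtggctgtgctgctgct
HNF4A downstream promoter: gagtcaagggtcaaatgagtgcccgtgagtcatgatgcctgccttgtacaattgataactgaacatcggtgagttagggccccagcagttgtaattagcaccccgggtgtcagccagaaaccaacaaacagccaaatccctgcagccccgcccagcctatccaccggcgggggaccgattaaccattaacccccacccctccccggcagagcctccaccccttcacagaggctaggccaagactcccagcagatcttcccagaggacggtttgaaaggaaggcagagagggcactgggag

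The inner NKX2-1 promoter held 2 NKX2-1 words, 1 FOXA word and 1 GATA word, and the outer one 1 FOXA word. FOXA1 held 2 NKX2-1 words and 1 FOXA word, the upstream HNF4A promoter held 1 GATA word, and the downstream one none of the words searched. Short words are common by their length alone. Over 34943 distinct promoters of the same length, 21.7% held an NKX2-1 word, 7.17% a FOXA word, 10.4% a GATA word and 0.383% the HNF4 word.

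NKX2-1 RNA (ENSG00000136352, annotated starts at chr14:36519693-36521149) divided the clusters into 4 with the gene and 2 nearly without it. It stood at 75.4 CPM in cluster 5 (67.8 to 83.6), 61.5 in cluster 3 (56.3 to 66.9), 51.3 in cluster 0 (49.1 to 53.6), 19.3 in cluster 4 (16.0 to 23.0), 2.56 in cluster 2 (1.89 to 3.38) and 2.29 in cluster 1 (1.59 to 3.21). The highest level was 32.8 times the lowest (23.1 to 48.2), and clusters 1 and 2 could not be told apart, with a ratio of 1.12 (0.706 to 1.78). The level in cluster 1 was 6.86% of the level over all nuclei. Of the genes that led a cluster, ALDH1A1 fell to 9.07% of its overall level in its lowest cluster and EGFR to 11.3%. The remaining leading genes stayed at 50.9% to 80.3%, while HNF4A fell to 4.75%. Whether the NKX2-1 RNA in clusters 1 and 2 was background was not tested.

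In the 20% portion the same 4 clusters were high. NKX2-1 stood there at 85.4 CPM in cluster 3 (70.0 to 103), 79.4 in cluster 5 (58.8 to 105), 61.0 in cluster 0, 28.6 in cluster 4, 3.31 in cluster 1 and 1.98 in cluster 2. The order of clusters 3 and 5 was turned, with overlapping intervals.

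SFTA3 (ENSG00000229415, start at chr14:36513829) followed NKX2-1 over the clusters. Its level was 40.0 CPM in cluster 3 (35.9 to 44.4), 38.8 in cluster 5 (33.4 to 44.8), 28.7 in cluster 0 (27.0 to 30.4), 16.8 in cluster 4 (13.7 to 20.3), 1.75 in cluster 1 (1.15 to 2.57) and 1.15 in cluster 2 (0.720 to 1.74). Clusters 3 and 5 did not differ beyond counting error (ratio 1.03, 0.858 to 1.24). Over 12 points, the 6 clusters in each portion, the Pearson correlation of log2(CPM + 1) of the pair was 0.99, with points that share libraries and cluster profiles. Both genes are read from the minus strand, SFTA3 downstream of NKX2-1, and GENCODE release 44 also holds a read-through SFTA3 model that spans NKX2-1. The features counted here gave SFTA3 only the start at chr14:36513829, not one upstream of NKX2-1. Whether reads of the pair were split or shared in the counting was not tested, so their levels may not be independent.

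SFTPB (ENSG00000168878) was almost absent. The 80% matrix held 26 UMIs of it, with 15 in cluster 0, 4 in cluster 1, 1 in cluster 2, 4 in cluster 3, 2 in cluster 4 and 0 in cluster 5, which allows up to 0.630 CPM there by a limit of 3 counts. It was the only 1 of the 8 members under the minimum of 200 UMIs. Its levels, at most 0.462 CPM, gave no order, since the interval of every step between neighbouring clusters held 1. Other secreted surfactant genes were rare as well, with 1 UMI of SFTPA1, 2 of SFTPA2, 6 of SFTPC and 35 of SFTPD. NKX2-1 RNA was thus measured in 4 clusters whose surfactant RNA was at or near 0.

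FOXA1 (ENSG00000129514, start at chr14:37595113) was high in 3 clusters and low in the other 3. It stood at 22.9 CPM in cluster 5 (18.8 to 27.6), 19.3 in cluster 1 (17.1 to 21.7), 18.6 in cluster 0 (17.3 to 20.0), 4.16 in cluster 3 (2.91 to 5.76), 1.46 in cluster 2 (0.972 to 2.11) and 1.27 in cluster 4 (0.546 to 2.49). The 3 high clusters did not differ in neighbouring pairs (ratios 1.19 and 1.04, both intervals holding 1), and cluster 0 exceeded cluster 3 by 4.47 times (3.2 to 6.44). In the 20% portion the same 3 clusters were highest, at 32.4, 17.5 and 17.5 CPM for clusters 5, 1 and 0.

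FOXA2 (ENSG00000125798, starts at chr20:22584463-22585455) had another order. Its level was 30.7 CPM in cluster 1 (28.0 to 33.7), 14.6 in cluster 3 (12.1 to 17.3), 7.46 in cluster 0 (6.63 to 8.36), 2.73 in cluster 5 (1.45 to 4.67), 2.69 in cluster 4 (1.57 to 4.30) and 1.41 in cluster 2 (0.929 to 2.05). Cluster 1 exceeded cluster 3 by 2.11 times (1.73 to 2.59) and cluster 2 by 21.8 times. Side by side, cluster 5 had high FOXA1 with low FOXA2, cluster 3 had the reverse, cluster 1 had both high, and clusters 2 and 4 had both low. The 20% portion gave 33.1 CPM in cluster 1, 19.3 in cluster 3 and 8.74 in cluster 0, the same first 3 places.

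HNF4A (ENSG00000101076, starts at chr20:44355700-44401301) was a gene of a single cluster. It stood at 31.7 CPM in cluster 1 (28.9 to 34.7) and at 0.261 to 0.949 CPM in the other 5, among which no neighbouring pair differed beyond counting error. Of 525 UMIs in the matrix, 470 fell in cluster 1, so HNF4A passed the minimum of 200 UMIs through that cluster. The ratio over the next cluster was 33.4 (15.2 to 91.6), and HNF4A was the only 1 of the 7 members tested to stand at least 4-fold over the next cluster, a mark that 5.05% of all 14874 genes with 200 UMIs passed. All 7 stood at least 4-fold over their lowest cluster, against 33.8% of all genes. In the 20% portion 69 of 72 UMIs were in cluster 1, a level of 32.6 CPM (25.4 to 41.3).

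GATA6 (ENSG00000141448, starts at chr18:22169392-22170933) was detected everywhere and peaked in cluster 4. It reached 21.3 CPM there (17.9 to 25.3), then 8.40 in cluster 5 (6.00 to 11.4), 7.63 in cluster 1, 7.63 in cluster 2, 4.34 in cluster 0 and 4.04 in cluster 3 (2.82 to 5.62). Cluster 4 exceeded cluster 5 by 2.54 times (1.77 to 3.72), while clusters 5, 1 and 2 formed a step of levels that did not differ in neighbouring pairs. The lowest level was 59.3% of the level over all nuclei, far above the 6.86% of NKX2-1. Cluster 4, the highest for GATA6, was low in FOXA1, FOXA2 and CEBPA, at 1.27, 2.69 and 0.474 CPM.

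CEBPA (ENSG00000245848, start at chr19:33302534) was a rare RNA with 248 UMIs. It stood at 7.63 CPM in cluster 1 (6.29 to 9.17), 2.56 in cluster 2 (1.89 to 3.38), 1.80 in cluster 0 (1.41 to 2.27), 0.924 in cluster 3, 0.474 in cluster 4 and 0.210 in cluster 5, the last on 1 UMI. Cluster 1 exceeded cluster 2 by 2.98 times (2.11 to 4.26), and no later step between neighbouring clusters exceeded counting error. Clusters further apart did differ. The interval of cluster 2 lay above those of clusters 3 (0.399 to 1.82), 4 (0.0978 to 1.39) and 5 (0.00531 to 1.17). In the 20% portion, cluster 1 stood at 7.57 CPM (4.33 to 12.3) and cluster 2 at 4.95 (2.77 to 8.16), which overlap.

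**Figure D1:**
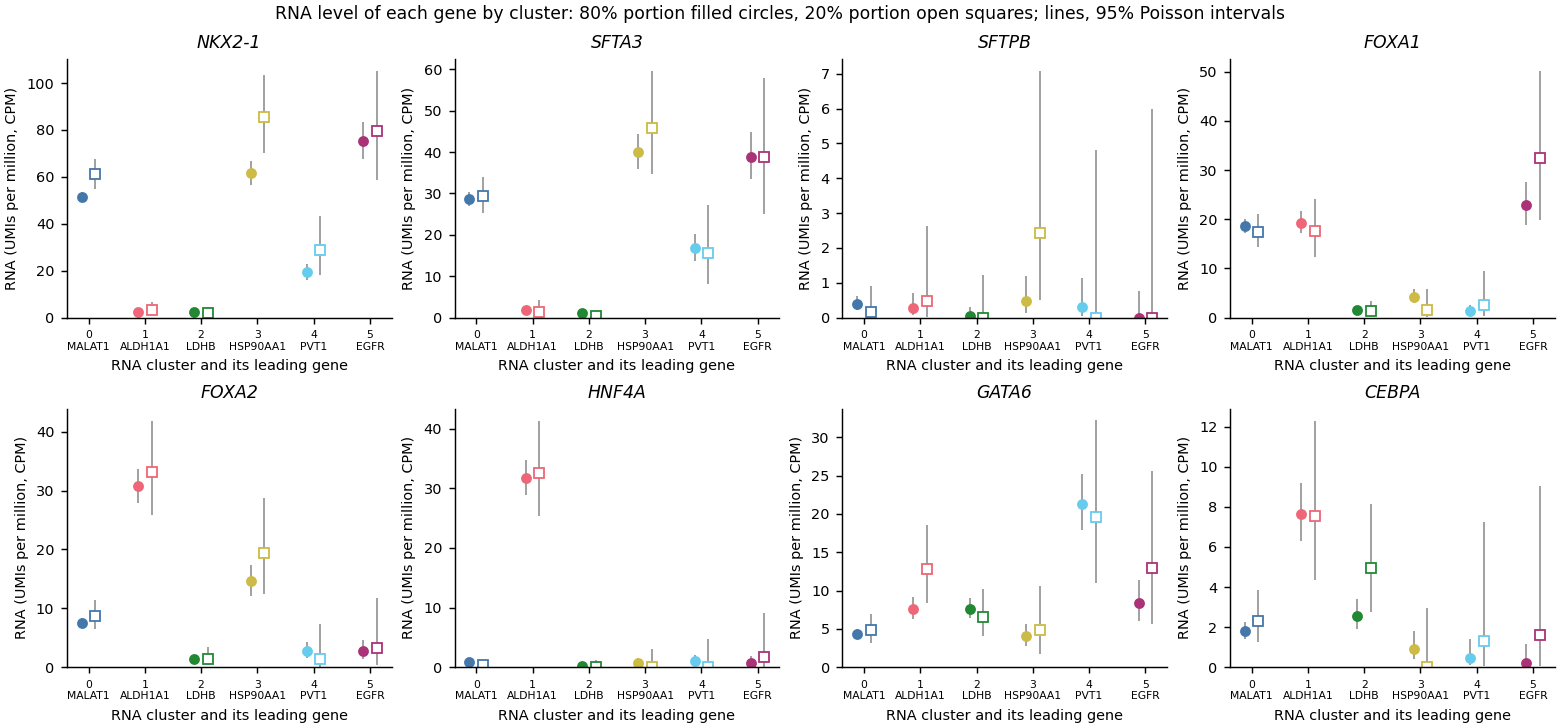
RNA level (y axis, CPM) of each of the 8 genes in the 6 RNA clusters (x axis, with the leading gene), filled circles for the 80% and open squares for the 20% portion, lines giving 95% Poisson intervals. NKX2-1 and SFTA3 are high in clusters 0, 3, 4 and 5, HNF4A in cluster 1 alone, and SFTPB stays near 0.

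Shares of nuclei with a UMI were compared after every nucleus was thinned to 5000 UMIs, which left out 0 to 38 nuclei per cluster. NKX2-1 was seen in 26.8% of cluster 5 nuclei (22.0 to 32.1), 25.1% of cluster 3, 21.0% of cluster 0 and 7.94% of cluster 4, against 0.980% and 1.26% in clusters 1 and 2. HNF4A was seen in 14.1% of cluster 1 nuclei (12.4 to 16.1), at most 0.436% of clusters 0, 2, 3 and 4, and 0 of 317 nuclei of cluster 5, which allows a share of up to 0.946% by a limit of 3 counts. Without thinning 3 of the 326 nuclei of cluster 5 had an HNF4A UMI. FOXA2 was seen in 15.0% of cluster 1 and 6.75% of cluster 3, and GATA6 in 9.52% of cluster 4 and 0.871% to 4.10% elsewhere. Without thinning the highest shares were 53.4% for NKX2-1 in cluster 5 and 23.9% for HNF4A in cluster 1.

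The variance over the mean, which is 1 for a Poisson draw, was taken within the clusters where NKX2-1 and HNF4A were high. Without thinning this ratio was above 1, at 1.62 for NKX2-1 in clusters 0 and 3, 1.48 in cluster 4 and 1.88 in cluster 5. It was 1.34 for HNF4A in cluster 1. These values include differences in depth. At 5000 UMIs the NKX2-1 ratio was 1.18 in cluster 0, 1.06 in cluster 3, 1.20 in cluster 4 and 1.34 in cluster 5. The HNF4A ratio was 1.19. These ratios have no interval, and thinning itself draws them towards 1. None of the 8 genes was seen in 59.6% of cluster 0, 60.8% of cluster 1, 92.6% of cluster 2, 54.7% of cluster 3, 74.3% of cluster 4 and 52.1% of cluster 5 nuclei, so cluster 2 was the poorest in this set. In cluster 0, SFTA3 was seen in 20.0% of 496 nuclei with NKX2-1 (16.5 to 23.8) and in 12.5% of 1864 without it (11.03 to 14.1). In clusters 3, 4 and 5 the shares were 26.1% against 18.3%, 20.0% against 6.90% and 20.0% against 15.5%, with overlapping intervals. FOXA1 was seen in 13.1% of cluster 0 nuclei with NKX2-1 (10.3 to 16.4) and in 8.85% without it (7.60 to 10.2). In the other clusters the intervals for FOXA1 overlapped. In cluster 1, HNF4A was seen in 13.5% of 215 nuclei with FOXA2 (9.22 to 18.8) and in 14.3% of 1214 without it (12.3 to 16.3). Nuclei with both factors occurred, with 29 for FOXA2 and HNF4A in cluster 1.

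**Figure D2:**
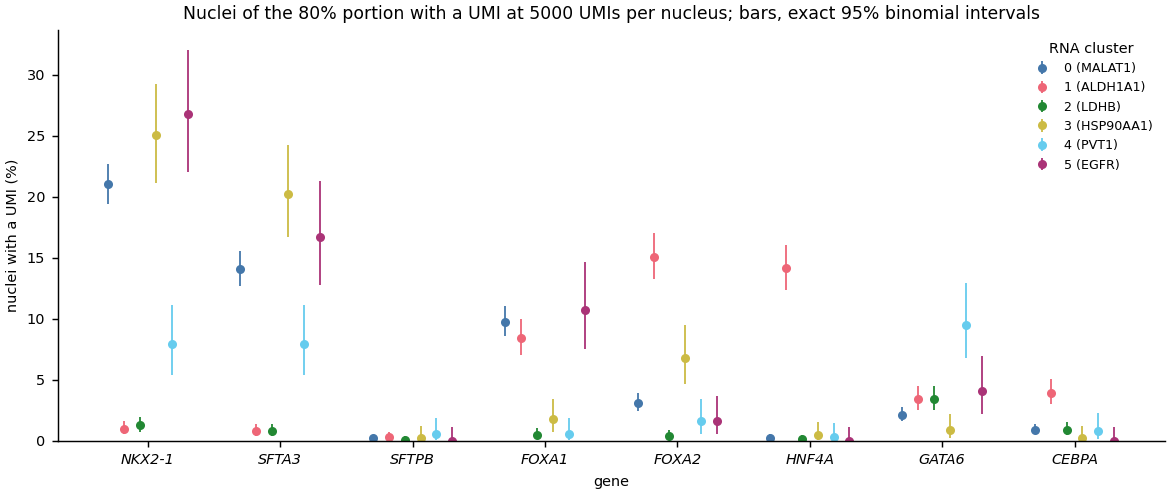
Share of nuclei with at least 1 UMI (y axis, percent) for each gene (x axis) in the 6 RNA clusters of the 80% portion at 5000 UMIs per nucleus, bars giving exact 95% binomial intervals. Cluster 1 leads for FOXA2, HNF4A and CEBPA, cluster 4 for GATA6, and clusters 1 and 2 lie near 1% for NKX2-1.

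Open chromatin was read from 91 distinct peaks within 50 kb of the annotated starts, of which 68 had at least 100 counts. Of these 68, 7 stood at least 4-fold over the next cluster, against 5.42% of all 100354 peaks with 100 counts, and 53 stood at least 4-fold over the lowest, against 64.5% of all. A peak CPM is ATAC counts of the peak per 1000000 ATAC counts of the cluster.

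At the NKX2-1 and SFTA3 locus, 15 peaks lay within 50 kb of NKX2-1, 10 of them with 100 counts. Of these 10, 9 were at least 4-fold over their lowest cluster, against 64.5% of all peaks with 100 counts. At least 4-fold over the next cluster were 0 of the 10, against 5.42% of all. The peak at the NKX2-1 start, chr14:36520094-36520468, in an NKX2-1 exon, held 15.8 CPM in cluster 5 (12.1 to 20.3), 11.7 in cluster 3, 8.0 in cluster 0, 3.85 in cluster 4, 3.35 in cluster 1 and 1.39 in cluster 2. The largest peak of the locus, chr14:36478573-36479492, lay 40201 bp downstream of the NKX2-1 starts in an intron of SFTA3. It held 47.0 CPM in cluster 5, 34.5 in cluster 3, 13.6 in cluster 0 and 10.6 in cluster 4, but 0.528 in cluster 1 and 0.427 in cluster 2. This order was that of NKX2-1 RNA except between clusters 1 and 2, both near 0, and the Pearson correlation of the log2 values was 0.98 over 6 clusters.

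The neighbouring peak at chr14:36477088-36477918, in an SFTA3 exon, separated the 4 clusters more. It held 28.0 CPM in cluster 5, 13.1 in cluster 3, 3.37 in cluster 4 and 1.45 in cluster 0, although cluster 0 had more NKX2-1 RNA than cluster 4. At the SFTA3 start, chr14:36513145-36514035, cluster 5 held 10.1 CPM (7.20 to 13.8) and cluster 3 held 2.79 (1.63 to 4.47), while SFTA3 RNA did not differ between these 2 clusters. The central 300 bases of the largest peak, chr14:36478883-36479182, plus strand, are given because that peak followed the RNA most closely, and they hold none of the words searched, while the whole peak holds 2 NKX2-1 words and 1 GATA word.
NKX2-1 downstream peak: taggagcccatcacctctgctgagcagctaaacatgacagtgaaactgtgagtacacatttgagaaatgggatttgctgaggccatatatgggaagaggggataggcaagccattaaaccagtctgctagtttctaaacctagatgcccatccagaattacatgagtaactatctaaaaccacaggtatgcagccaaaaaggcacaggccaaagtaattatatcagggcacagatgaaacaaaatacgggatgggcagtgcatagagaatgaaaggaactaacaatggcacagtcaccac

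In single nuclei this peak was seen rarely. In cluster 0, 171 nuclei had a count in it, and their summed NKX2-1 RNA was 61.2 CPM (53.1 to 70.2), against 50.4 (48.1 to 52.7) in the 2227 without. In cluster 4 the values were 47.7 CPM (28.7 to 74.5, on 19 UMIs) in 21 nuclei with a count and 17.4 (14.2 to 21.1) in 357 without. In clusters 5 and 3 no excess was seen, with 75.1 against 75.4 CPM in cluster 5 and 57.3 (47.6 to 68.4) against 62.8 (56.9 to 69.2) in cluster 3. Nuclei with a count had deeper ATAC data, a median of 12965 against 11303 counts in cluster 0, whose part in the result was not tested. Doublet calls were kept, at 11.9% of cluster 4, 10.4% of cluster 3, 6.44% of cluster 5 and 4.84% of cluster 0 nuclei. Their part was not tested either. The same comparison was made for HNF4A, FOXA2 and FOXA1, each with the peak most like its RNA, and the intervals overlapped in every cluster. In cluster 1, HNF4A stood at 32.6 CPM with a count and 31.6 without, FOXA2 at 34.6 and 29.6, and FOXA1 at 13.8 and 19.7.

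The FOXA loci followed their RNA in part. The peak at chr14:37595643-37596551, 530 bp upstream of the FOXA1 start in an intron of TTC6, held 59.9 CPM in cluster 5, 32.8 in cluster 0, 32.5 in cluster 1 and 22.0 in cluster 3, then 7.46 in cluster 4 and 1.49 in cluster 2. Cluster 3 thus had an open FOXA1 start with 4.16 CPM of its RNA. A peak 27453 bp downstream, chr14:37566774-37567660 in an intron of MIPOL1, held 13.2 CPM in cluster 1 and at most 0.978 elsewhere, a ratio of 13.5 (8.93 to 21.2), the largest excess over the next cluster among all peaks near the members with 100 counts.

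FOXA2 had its main peak at the start, chr20:22584277-22585190, in an intron of FOXA2. It held 58.1 CPM in cluster 1, 32.5 in cluster 3, 21.3 in cluster 5, 16.8 in cluster 0, 5.29 in cluster 4 and 0.746 in cluster 2. Cluster 5 stood above cluster 0 in this peak (16.9 to 26.4 against 15.3 to 18.4, intervals that overlap) and below it in RNA. Cluster 2, the lowest in FOXA2 RNA, had 77.9 times less of this peak than cluster 1 (37.6 to 194).

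At HNF4A the annotated starts span an upstream and a downstream promoter. The peaks along this span differed in the cluster that was highest, and none of them overlapped the downstream promoter printed above. The upstream peak, chr20:44355107-44355967, held 14.3 CPM in cluster 1 and at most 1.92 elsewhere, a ratio of 7.43 (4.56 to 12.9). An intronic peak between the starts, chr20:44370350-44371313, held 20.0 CPM in cluster 1 and 3.33 in the next, a ratio of 6.00 (4.69 to 7.73). It was picked as the peak with at least 100 counts most like HNF4A RNA, so its excess in cluster 1 follows from that choice. Of the 13 peaks near HNF4A with 100 counts, 4 were highest in cluster 1. The last peak of the span, chr20:44398118-44399015 in an intron upstream of the downstream promoter, was highest in cluster 2 at 27.8 CPM, with 16.1 in cluster 1, 14.0 in cluster 4 and at most 3.78 in the rest, although clusters 2 and 4 had 0.261 and 0.949 CPM of HNF4A RNA. Summed over the 8 peaks from first to last start, cluster 1 held 80.9 CPM and cluster 2 held 66.8, a ratio of 1.21 (1.09 to 1.34), and the 5 clusters with almost no RNA ranged from 15.3 to 66.8. HNF4A-AS1, antisense to HNF4A, stood at 3.58 CPM in cluster 1 and at most 0.231 elsewhere on 57 UMIs. Its UMIs were counted apart from those of HNF4A, and the sources used do not say whether that counting used strand. The central 300 bases of the intronic peak, chr20:44370682-44370981, plus strand, hold 1 FOXA word, in capitals.
HNF4A intronic peak: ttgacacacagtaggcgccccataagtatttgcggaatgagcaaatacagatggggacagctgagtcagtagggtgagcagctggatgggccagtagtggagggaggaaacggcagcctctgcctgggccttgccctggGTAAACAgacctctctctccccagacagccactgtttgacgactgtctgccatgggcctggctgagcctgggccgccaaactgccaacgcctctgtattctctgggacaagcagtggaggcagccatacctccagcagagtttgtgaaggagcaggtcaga

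GATA6 starts were open in all clusters. The 2 start peaks summed to 30.4 CPM in cluster 5, 26.6 in cluster 2, 23.2 in cluster 1, 22.4 in cluster 4, 17.8 in cluster 0 and 15.1 in cluster 3. Cluster 4, with the highest GATA6 RNA, lay below 3 other clusters here, but its interval (18.1 to 27.4) overlapped each of theirs. A distal peak at chr18:22212993-22213869 held 6.74 CPM in cluster 4 and at most 2.08 elsewhere, on 89 counts in all.

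The CEBPA start peak, chr19:33302250-33303132, was strong in every cluster. It held 90.8 CPM in cluster 1, 40.7 in cluster 2, 34.8 in cluster 0, 20.9 in cluster 4, 18.4 in cluster 5 and 17.4 in cluster 3. Cluster 1 exceeded cluster 2 by 2.23 times (1.98 to 2.51), close to the ratio of 2.98 in RNA. Its counts were in an order much like the RNA, with a Pearson correlation of 0.97 over 6 clusters. The SFTPB start peak, chr2:85668286-85668974, held only 1.07 to 6.26 CPM, with cluster 4 highest.

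**Figure D3:**
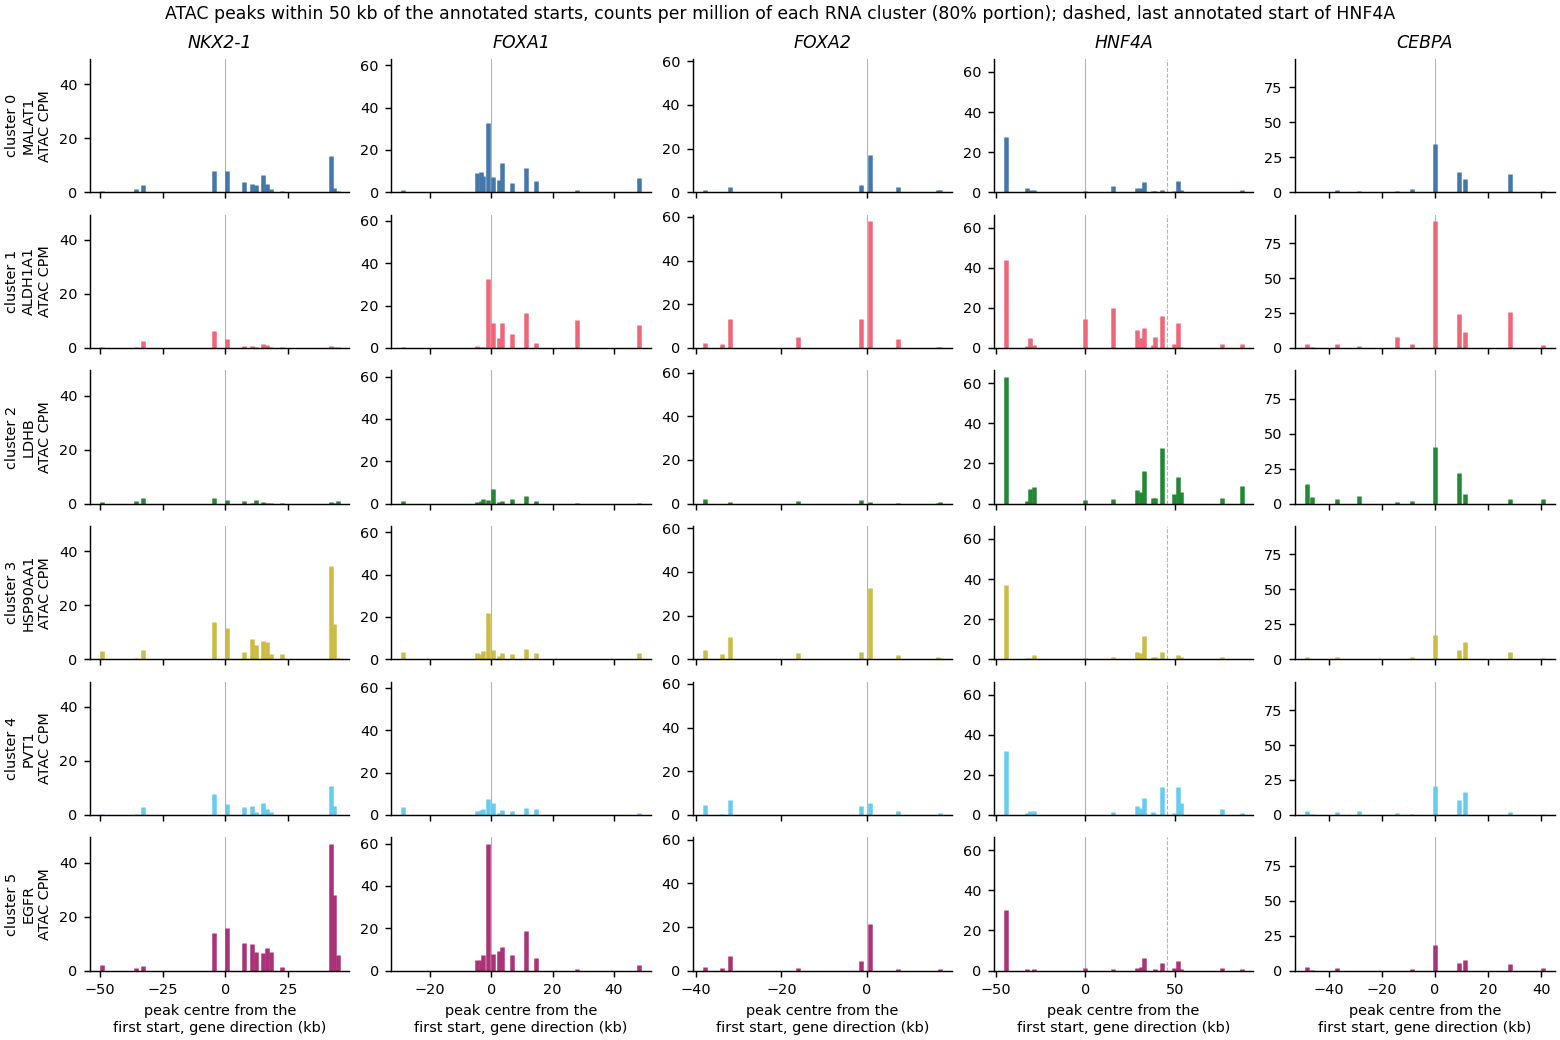
ATAC CPM (y axis, shared within a column) of each peak within 50 kb of 5 genes, by distance of the peak centre from the first annotated start in gene direction (x axis, kb), with 1 row per RNA cluster of the 80% portion. The NKX2-1 peak 40 kb downstream is tall in clusters 5 and 3 and near 0 in clusters 1 and 2, and the first HNF4A start is open in cluster 1.

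Over the 6 clusters, the correlation between ATAC counts at the starts and RNA differed between members. Pearson correlations of log2(CPM + 1) were 0.97 for CEBPA, 0.95 for FOXA1, 0.91 for NKX2-1, 0.85 for FOXA2, 0.84 for SFTA3, 0.57 for HNF4A and 0.50 for GATA6, each over 6 points of 1 library pair. The HNF4A value was taken over the sum of the 8 peaks along the span from first to last start. Its upstream peak alone was highest in cluster 1, as described above.

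**Figure D4:**
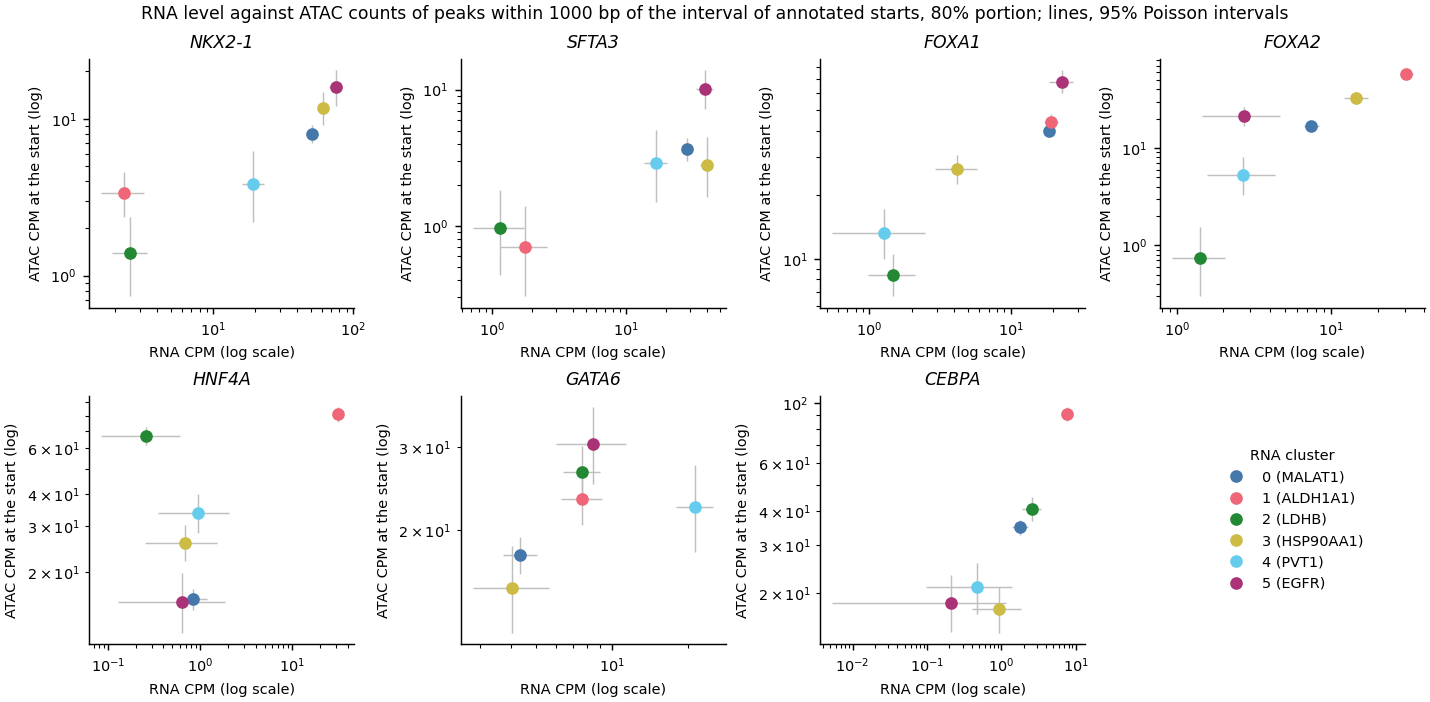
RNA CPM (x axis, log scale) against ATAC CPM of the start peaks (y axis, log scale) for 7 genes, 1 point per RNA cluster of the 80% portion, lines giving 95% Poisson intervals. For HNF4A the ATAC value is the sum of the 8 peaks from first to last start. Cluster 2 lies high on that axis with 0.261 CPM of HNF4A RNA, and GATA6 spans a narrow ATAC range of 15.1 to 30.4 CPM.

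The words of the member factors were then searched in all peaks with 100 counts on the main chromosomes. The accessibility of a peak in a cluster was taken as log2 of its CPM + 1 over the mean of the other 5 clusters, and the median of peaks with a word was set against that of peaks without. Of 100327 peaks, 64.5% held an NKX2-1 word, 24.2% a FOXA word, 34.2% a GATA word, 1.46% a C/EBP word (TTGCGCAA, TTGCGTCAT or TTGTGCAAT) and 1.31% the HNF4 word. Of the 91 peaks near the members, 70.3%, 29.7%, 39.6%, 1.10% and 0 of 91 held them. Peaks with and without a word were not matched for base composition or width, and all come from the same libraries. The differences below are therefore descriptions.

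Peaks with the HNF4 word were more open in cluster 1, the cluster with HNF4A RNA. Their median exceeded that of other peaks by 0.30 on the log2 scale, and by 0.74 where the word lay within 100 bp of the peak centre. In clusters 2, 3, 4 and 0 the central difference was -0.73, -0.47, -0.54 and -0.15. Cluster 5 was above 0 as well, at 0.22, with 0.630 CPM of HNF4A. HNF4G, a receptor of the same family that binds the same words, stood at 115 CPM in cluster 5 and 33.4 in cluster 0. In cluster 1 it stood at 25.5 CPM, against 31.7 of HNF4A. The part of HNF4G in these values was not tested. In cluster 1, 22.0% of peaks with the word were at least 2-fold over the other clusters, against 8.48% of peaks without.

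Peaks with NKX2-1 words were less open in clusters 1 and 2, which had almost no NKX2-1 RNA. The difference was -0.25 and -0.13 there, or -0.31 and -0.18 for central words. In the other clusters it lay between 0.01 and 0.07, or between -0.0040 and 0.10 for central words. Values below 0 in these clusters were not particular to NKX2-1 words. Cluster 2 was at -0.21 for FOXA, -0.28 for HNF4, -0.10 for GATA and 0.16 for C/EBP words. Cluster 1 was at 0.0045, 0.30, -0.19 and -0.05 for the same words. Peaks with FOXA words were less open in clusters 2 and 4, which were low in both FOXA1 and FOXA2, at -0.21 and -0.14, or -0.37 and -0.30 for central words. In cluster 1, with both FOXA genes high, the difference was 0.0045 for the whole peak and 0.16 for central words.

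Peaks with GATA words were highest in cluster 4, which led in GATA6 RNA, though by little. The difference was 0.044 there, 0.041 in cluster 3, the lowest for GATA6, and -0.19 in cluster 1. For central words cluster 4 was at 0.069 and the other clusters at -0.15 to -0.029. GATA2, another GATA factor, stood at 27.3 CPM in cluster 2 and 11.5 in cluster 4, and its part in these values was not tested. C/EBP words did not follow CEBPA, at -0.05 in cluster 1, where CEBPA was highest, and at 0.16 in cluster 2, or -0.09 and 0.28 for central words. CEBPB, a relative that binds the same words, stood at 385 CPM in cluster 2 and 158 in the next cluster, and its part in these values was not tested.

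**Figure D5:**
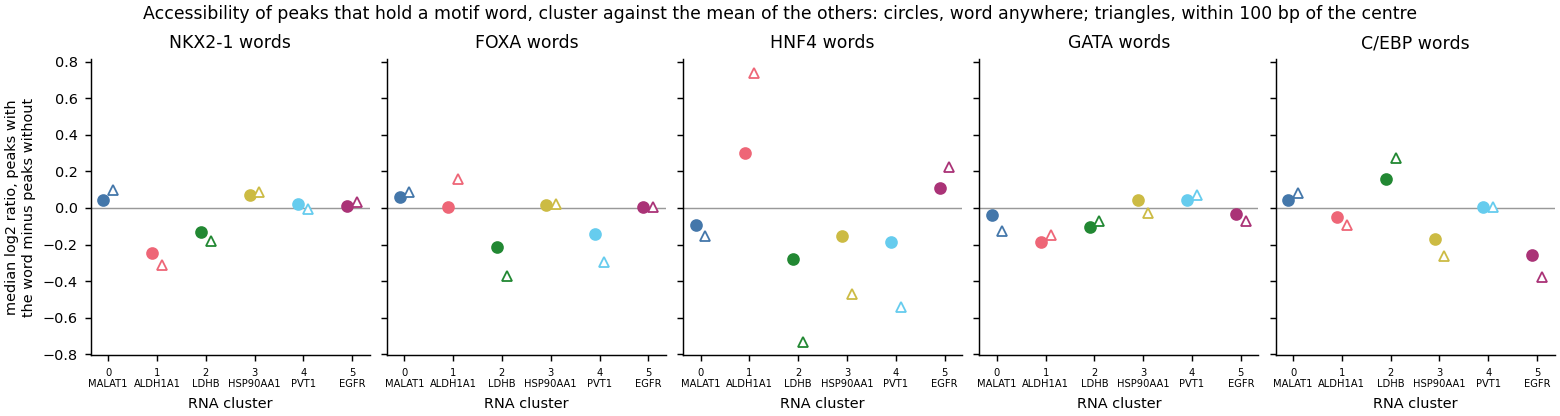
Median log2 accessibility ratio of peaks with a word minus that of peaks without (y axis) in each RNA cluster (x axis), circles for a word anywhere in the peak and triangles for a word within 100 bp of the centre. HNF4 words reach 0.74 in cluster 1 and -0.73 in cluster 2.

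Genes of the same lineages were counted next to the members. Of 23 gut and liver genes, 11 passed 200 UMIs and 4 were at least 4-fold over the next cluster, all 4 in cluster 1, against 5.05% of all genes tested. They were FGB at 114 CPM, CPS1 at 96.0, FGG at 57.6 and FGA at 55.6, the fibrinogen chains and the first enzyme of the urea cycle. The median ratio of the 11 over the next cluster was 2.61, against 1.23 over all genes tested, and 7 of the 11 were highest in cluster 1, where 17.0% of all genes were. The minimum of 200 UMIs was taken over all clusters together, here and for all genes. A gene could thus pass it through its highest cluster alone. Of the tested genes of this list not highest in cluster 1, 2 were highest in cluster 0, 1 in cluster 4 and 1 in cluster 5. Among these, SERPINA1 stood at 88.7 CPM in cluster 0 and 13.6 in cluster 1. HNF4G stood at 115 CPM in cluster 5 and 25.5 in cluster 1. GATA4, an endoderm relative of GATA6, was highest in cluster 1 at 3.64 CPM on 60 UMIs. ALB, APOA1, APOB and TTR of hepatocytes had 1 to 20 UMIs each.

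Of 14 alveolar type 2 genes, 8 were tested and 2 called, against 5.05% of all genes, with a median ratio of 1.78. NAPSA, an aspartic protease that processes surfactant protein B, stood at 69.7 CPM in cluster 5 and 6.82 in the next, while SLC34A2, a phosphate transporter, stood at 57.7 in cluster 0 and 7.05 in the next. The called genes thus lay in different clusters of the 4 with NKX2-1. Of the 8 tested genes, 3 were highest in cluster 0, 2 in cluster 3, 2 in cluster 5 and 1 in cluster 2. The last was CLDN18, at 6.11 CPM in cluster 2, which was nearly without NKX2-1, and 1.90 in the next. The summed level of the list was 441 to 567 CPM in clusters 0, 3 and 5, 174 in cluster 4, and 139 and 126 in clusters 1 and 2. In clusters 0, 3 and 5 most of it was MUC1, a mucin of many epithelia, and LPCAT1, an enzyme of surfactant lipid synthesis, at 311 and 71.7 CPM in cluster 0, 155 and 170 CPM in cluster 3 and 69.7 and 263 CPM in cluster 5.

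Airway genes had 4 of 10 tested and 1 called, against the same 5.05%, with a median ratio of 2.07: the mucin MUC5AC at 532 CPM in cluster 1, against 26.4 in the next. Related transcription factors had 14 of 15 tested and 1 called, a share near that of all genes, with a median ratio of 1.47. The 1 called was FOXP2, at 64.0 CPM in cluster 0 and at most 4.50 in the others. Of the alveolar type 1 genes 3 of 7 were tested and 0 called (median ratio 1.21), and of 8 transcripts neighbouring the members 3 were tested and 0 called (median ratio 1.34). Among the mesenchymal markers, which were not kept out of the clustering, COL1A2 was called, at 66.3 CPM in cluster 4.

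Genes within 1 Mb were compared with the members on the log2 scale, each against the mean of the other clusters. Around CEBPA, 15 of 17 neighbours were highest in cluster 1, where 17.0% of all genes tested were highest, with a median of 0.99, and the 106 peaks around it summed to 1.24 there. CEBPA itself was at 1.98. Around HNF4A, 17 of 25 neighbours were highest in cluster 2, where 23.2% of all genes were, with a median of 0.90 and 1.15 for the 166 peaks, whereas HNF4A was at 4.29 in cluster 1 and -2.66 in cluster 2. Around NKX2-1 the median of the 9 neighbours was lowest in cluster 2, at -0.94, although 1 of them was highest there. In cluster 1 their median was near the mean, at -0.11. NKX2-1 was at -3.59 in cluster 2 and -3.71 in cluster 1. The part that these neighbourhoods have in the start-peak and RNA values of CEBPA and HNF4A was not tested.

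The genes most like each member over the 12 cluster points were named by their Pearson correlation among 14873 genes. For NKX2-1 these included CAB39 (0.99) and SFTA3 (0.99), and for SFTA3 they included NPC2 (0.99) and PCDH7 (0.99). FOXA1 was most like TTC6 (0.97), whose body overlaps its upstream region, then VEGFC (0.96) and RAP1B (0.96). FOXA2 was most like RBM33 (0.96), TFCP2L1 (0.96) and GALM (0.96), and HNF4A most like GRIN2B (0.99), FILIP1 (0.99) and TPPP3 (0.99). GATA6 was most like TMEM161A (0.93), ADAMTS9 (0.92) and RFTN1 (0.90), and CEBPA most like NOSTRIN (0.98), LINC01137 (0.97) and COL4A4 (0.96). The 12 points share 6 cluster profiles, and these names describe the pattern only. Among the members, NKX2-1 and SFTA3 ran opposite to CEBPA, at -0.79 and -0.81, and FOXA2 with HNF4A and HNF4A with CEBPA stood at 0.69 and 0.68.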

How the data were processed

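The authors cultured 5 lung adenocarcinoma lines separately, mixed them, and ran the nuclei as an 80% and a 20% portion, each with 1 RNA and 1 ATAC library. They deposited whole-number counts per nucleus: UMIs per gene and ATAC counts per peak, with peaks called in each portion (Cell Ranger ARC 2.0.0 and GRCh38 in the submitters' processing notes). The sources used here do not say whether gene counting used strand. The combined matrices, the long-read statistics and the long-read sample were not used here, and the number of unmapped columns with sample values was 0.

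Total RNA counts were 95455518 UMIs in the 80% and 14346346 in the 20% portion, and ATAC counts 63920767 and 12850543. No deposited column gives a line for a nucleus, so nuclei of the 80% portion were grouped with Seurat 5.3.0 (R 4.3.3; Louvain, 2000 variable genes, 30 components, 20 neighbours, resolution 0.08, the lowest with at least 6 clusters of at least 1% of nuclei). The 8 genes, the lineage gene lists and all genes within 1 Mb (291 in total) were kept out of the clustering. The cell type markers were not. Scrublet (scanpy 1.11.5, expected rate 0.06) called 385 doublets, which were kept in the other clusters. A cluster with over 50% doublet calls was set aside, a choice made after seeing the data. Nuclei of the 20% portion were given the cluster with the best correlated profile. The same step put 97.7% of 80% nuclei back in their own cluster.

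Counts were summed per cluster and given as CPM (counts per 1000000) with exact 95% Poisson intervals, ratios with exact conditional intervals, and shares of nuclei, thinned to 5000 UMIs, with exact binomial intervals. These cover counting error only. With 1 library per portion and assay there is no replicate and no test. A ratio against 0 counts used a floor of 3 counts per cluster. Ratios were called at 4-fold, over genes with at least 200 UMIs and peaks with at least 100 counts. These minimums were taken over all clusters together, so a gene or peak could pass them through its highest cluster alone. Genes most like a member were the 3 with the highest Pearson correlation of log2(CPM + 1) over clusters of both portions. Sequences are from RefSeq promoters (GRCh38.p14) or hg38, and gene models from GENCODE release 44. All 11 promoters of these genes were identical to hg38. Steps were checked on simulated data. The members, gene lists and rules were chosen with earlier results of these data known. The genes named are the 8 members, up to 4 called genes of each list in order of CPM, the 3 most alike genes and the leading gene of each cluster, except that some are not reported here. Any further gene in the text was picked with its values in view.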

Additional observations from a re-analysis of the deposited data

How the results depend on the processing

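Values here are log2 ratios of the highest cluster of the reported grouping over the next. Leaving out shallow nuclei, doublet calls or shared barcodes, another clustering seed, clusters of the ATAC counts, clusters made with the members, a mean of per-nucleus shares and a start window of 2000 bp kept every such ratio of RNA and start-peak ATAC within its counting interval. In the 20% portion NKX2-1 turned from 0.29 to -0.11, FOXA1 went from 0.25 to 0.89, FOXA2 from 1.08 to 0.78, HNF4A from 5.06 to a lower bound of 3.06 (0 UMIs in the cluster compared, set to 3 counts), GATA6 from 1.35 to 0.59 and CEBPA from 1.58 to 0.61, and the FOXA2 start peaks from 0.84 to 0.46. With at least 5 in place of 6 clusters, NKX2-1 was at 0.78, SFTA3 went from 0.04 to -0.38, FOXA2 to 1.69 and GATA6 to 0.45. With the doublet cluster included, a choice made after seeing the data, the SFTA3 start peak went from 1.47 to 0.89. The cause was not tested. SFTPB gave no ratio in the 20% portion, where no cluster exceeded 3 UMIs.

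The share of genes at least 4-fold over the next was 13.8% at 2-fold and 2.51% at 8-fold, and 5.88% and 3.22% with minimums of 20 and 1000 UMIs. For peaks it was 19.0% and 1.70%, and 6.32% and 1.77% with minimums of 20 and 500 counts. A window of 10 kb held 38 peaks and 100 kb held 149. Of the 3 most alike genes, 0 to 2 were kept with Spearman correlation or the 80% portion alone. Over all 208 alternatives 146 stayed within the interval or tolerance and 61 moved, and NKX2-1 in the 20% portion was the 1 value with an interval excluding 0 that changed sign. Values near 0 that changed sign besides SFTA3 were SFTPB, from 0.28 to -0.57 without doublet calls and -0.04 with the members in the clustering, and, for central words, NKX2-1 words in cluster 4 (0.02 to -0.0040) and GATA words in cluster 3 (0.04 to -0.03). SFTPB and the rarer members in the 20% portion are limited by counts. No paired analysis was possible because each portion has 1 library of each kind.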
